A study of Saccharomyces cerevisiae with 12 samples.

Results

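The genes described here are 9 yeast genes that encode alternative isoforms of 4 proteins, with an isoform known for aerobic growth and at least 1 known for growth with little oxygen in each family. They are COX5A and COX5B (subunit 5 of cytochrome c oxidase), CYC1 and CYC7 (cytochrome c), HYP2 and ANB1 (the translation factor eIF5A), and PET9, AAC1 and AAC3 (the mitochondrial ADP/ATP carrier). They were chosen by name among the 6078 genes listed in the deposited tables, and all 9 were listed in each of the 4 tables. RNA was sequenced from Saccharomyces cerevisiae cells of the haploid laboratory strain BY4741, with 3 libraries in each of 4 groups. The groups were wild-type and set4Δ cells grown in rich YPD medium at 30 °C to mid-log phase in air, and the same 2 genotypes grown for 18 hours in anaerobe gas pouches, called hypoxia below. In set4Δ cells the SET4 gene, which encodes a chromatin protein with a SET domain, was replaced by the HIS3MX marker. All groups share the BY4741 background (MATa his3Δ1 leu2Δ0 met15Δ0 ura3Δ0), and laboratory strains of this lineage carry a retrotransposon insertion in HAP1, which encodes a heme-dependent activator of respiratory genes.

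Yeast keeps pairs of genes for several proteins of respiration and translation and switches between them with oxygen. Cells sense oxygen largely through heme, whose synthesis needs oxygen. With heme, Hap1 and the Hap2/3/4/5 complex activate aerobic genes, and Hap1 also drives ROX1, whose product recruits the Tup1-Cyc8 corepressor to hypoxic genes. When heme is short, Rox1 is lost and the hypoxic genes are expressed. ANB1, COX5B and AAC3 are textbook targets of Rox1.

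The promoters were read from the RefSeq R64 genome to show the letters that the repressor is known to recognise. Stretches from 350 to 151 bases before the start codon are given below for ANB1 and its partner HYP2, for COX5B and AAC3, and for CYC7 and AAC1, with the core of the Rox1 motif, ATTGTT on the coding strand, in capitals. The reverse complement was searched as well and is not found in these 6 stretches.
ANB1, chrX:525532-525731, reverse strand: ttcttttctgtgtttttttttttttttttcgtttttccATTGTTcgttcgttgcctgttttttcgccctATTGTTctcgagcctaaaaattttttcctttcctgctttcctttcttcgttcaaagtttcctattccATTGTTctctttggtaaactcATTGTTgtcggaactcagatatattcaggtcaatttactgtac
HYP2, chrV:85326-85525, forward strand: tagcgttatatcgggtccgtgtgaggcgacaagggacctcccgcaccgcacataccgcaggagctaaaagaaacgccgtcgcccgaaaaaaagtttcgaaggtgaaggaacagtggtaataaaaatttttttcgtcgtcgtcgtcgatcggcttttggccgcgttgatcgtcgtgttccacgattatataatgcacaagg
COX5B, chrIX:154872-155071, forward strand: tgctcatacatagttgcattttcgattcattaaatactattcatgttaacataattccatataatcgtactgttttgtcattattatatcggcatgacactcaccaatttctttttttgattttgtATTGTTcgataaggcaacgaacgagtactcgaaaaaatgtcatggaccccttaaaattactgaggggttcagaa
AAC3, chrII:415633-415832, forward strand: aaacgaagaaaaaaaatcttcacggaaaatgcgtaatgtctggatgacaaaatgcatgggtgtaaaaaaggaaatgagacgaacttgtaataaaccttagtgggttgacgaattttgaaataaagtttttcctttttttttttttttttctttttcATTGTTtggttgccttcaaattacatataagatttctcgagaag
CYC7, chrV:80128-80327, reverse strand: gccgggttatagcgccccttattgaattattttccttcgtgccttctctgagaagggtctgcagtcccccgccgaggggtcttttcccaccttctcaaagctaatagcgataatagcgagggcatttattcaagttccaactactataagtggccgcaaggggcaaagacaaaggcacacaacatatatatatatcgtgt
AAC1, chrXIII:388395-388594, reverse strand: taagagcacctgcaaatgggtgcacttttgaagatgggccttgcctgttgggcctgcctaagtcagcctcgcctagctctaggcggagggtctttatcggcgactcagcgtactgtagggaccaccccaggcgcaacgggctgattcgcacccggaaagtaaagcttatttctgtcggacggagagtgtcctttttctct

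The stretch of ANB1 holds 4 copies of the core, those of COX5B and AAC3 hold 1 each, and those of HYP2, CYC7 and AAC1 hold none. At least 1 copy is found in 22.5% of 6020 promoters over the same stretch, and 4 or more in 0.0332%, which is 2 promoters. These shares depend on where the stretch was placed. It takes in every match of ANB1 listed below but leaves out matches of COX5B and COX5A. In the shorter window around the start codon, ANB1, COX5B and AAC3 hold 2 copies each and COX5A holds 1. There, 8.14% of 6020 promoters hold 2 or more, so the count at ANB1 does not stand out in that window. Over the whole 600 bases before the start codon, the core is found 4 times at ANB1, 3 times at COX5B and once each at COX5A and AAC3, against at least 1 copy in 54.9% of 6018 promoters. Matches of CCAAT, the letters bound by the Hap2/3/4/5 complex, lie in these 600 bases at 7 of the 9 genes, with the largest number, 4, at PET9, and in 70.2% of all promoters. CGGNNNTA, the first part of the Hap1 motif, is found at 4 of the 9 genes, which are COX5A, CYC1, HYP2 and ANB1, and in 40.2% of all promoters. The matches of CGGNNNTA at ANB1 and CYC1 are 1 and the same site, which lies in the windows of both of these neighbouring genes. It is at -491 to -484 from the start codon of ANB1 and at -470 to -463 from that of CYC1. The 2 matches of CGGNNNTA at HYP2 overlap each other on opposite strands. Apart from these, no matches at the 9 genes share a base. All motifs were searched on both strands, and a match is a description of the letters only.

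The paralogs differ in sequence to different degrees. The isoforms of eIF5A are the closest pair, with 91.1% identical coding bases and 90.4% identical residues. The first 90 coding bases of both are given here with their 4 differences in capitals, as an example of what a read must span to be assigned.
HYP2, chromosome V: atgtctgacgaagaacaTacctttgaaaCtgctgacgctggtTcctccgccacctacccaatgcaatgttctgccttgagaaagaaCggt
ANB1, chromosome X: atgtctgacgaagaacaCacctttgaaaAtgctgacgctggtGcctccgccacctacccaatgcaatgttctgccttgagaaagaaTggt
Over the whole coding sequence these genes differ at 43 bases, and the longest run without a difference is 43 bases. PET9 and AAC3 share 90.2% of residues but 78.6% of coding bases. PET9 and AAC1 share 78.2% of residues, CYC1 and CYC7 share 84.4%, and COX5A and COX5B share 65.3%. No word of 50 bases from their coding sequences has a second copy in R64.

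The positions of the genes join members of different families. CYC1 (YJR048W, chrX:526335-526664, forward strand) and ANB1 (YJR047C, chrX:524908-525381, reverse strand) are neighbours, transcribed away from each other across 953 bases. CYC7 (YEL039C, chrV:79636-79977, reverse strand) and HYP2 (YEL034W, chrV:85676-86149, forward strand) lie 5698 bases apart with 4 genes between them. COX5A (YNL052W) is on chromosome XIV, COX5B (YIL111W) on chromosome IX, AAC1 (YMR056C) on chromosome XIII, and PET9 (YBL030C) and AAC3 (YBR085W) on chromosome II. COX5B is the only one of the 9 with an intron in its coding sequence, of 88 bases.

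The 12 libraries held 18786176 to 27572406 reads assigned to genes, where 1 step of the normalized values was taken as 1 read, and the 10 most abundant genes took 22.8 to 24.6% of them in air and 29.8 to 32.9% in hypoxia. SET4 was at 161 to 217 normalized counts in wild-type cells in air and at 4898 to 8574 in hypoxia. In set4Δ cells it was at 0, 3.78 and 0 in air and at 16.6 to 26.0 in hypoxia, so that all 6 libraries were in keeping with their label. The hypoxic libraries of a genotype were not alike. By their deviations from the mean of their group across 5652 genes, which are not independent replicates, library 3 of wild-type cells went with library 3 of set4Δ cells (r = 0.746) and against its libraries 1 and 2 (-0.670 and -0.659). Wild-type library 2 went with set4Δ libraries 1 and 2 (0.749 and 0.725) and against library 3 (-0.828), and wild-type library 1 lay between (-0.076 to 0.076). Deviations within a group sum to 0, so the positive and negative values depend on each other and are not separate evidence. Of the 9 genes, 3 (COX5B, ANB1 and AAC3) were highest and 5 (COX5A, CYC1, HYP2, AAC1 and PET9) were lowest in library 3 of both genotypes. The share of all genes placed in this way was not counted, so this does not set the 9 genes apart. The responses, shares and ratios of the 9 genes are therefore given also without libraries 3. The part of these libraries in any result was not tested otherwise.

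Hypoxia raised 4 of the 9 genes and lowered 1 in wild-type cells. ANB1, CYC7, AAC1 and COX5B were higher and HYP2 was lower, where a call needed an adjusted p of at most 0.05 in limma and a log2 fold change whose size reached 1. Of all 6033 genes tested, 18.1% were higher and 14.4% lower by this rule. COX5A, PET9 and CYC1 passed the adjusted p but not the fold change, so that 8 of the 9 genes passed the adjusted p alone, as did 79.5% of all genes. The same 4 genes were higher and HYP2 was lower in set4Δ cells, where 18.6% of 6058 genes were higher and 15.5% lower. In set4Δ cells 6 of the 9 genes passed the adjusted p alone, against 79.4% of all genes, and COX5A and CYC1 passed it too without hypoxic library 3. The 9 genes had a median change of 0.33 in wild-type and 0.20 in set4Δ cells on the log2 scale, beside 0.01 over all genes in both. The labels do not say that the libraries came from separate cultures, so the p-values measure the spread between these libraries. In bulk RNA, a change in RNA per cell and a change in the share of cells that express a gene cannot be told apart.

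**Figure D1:**
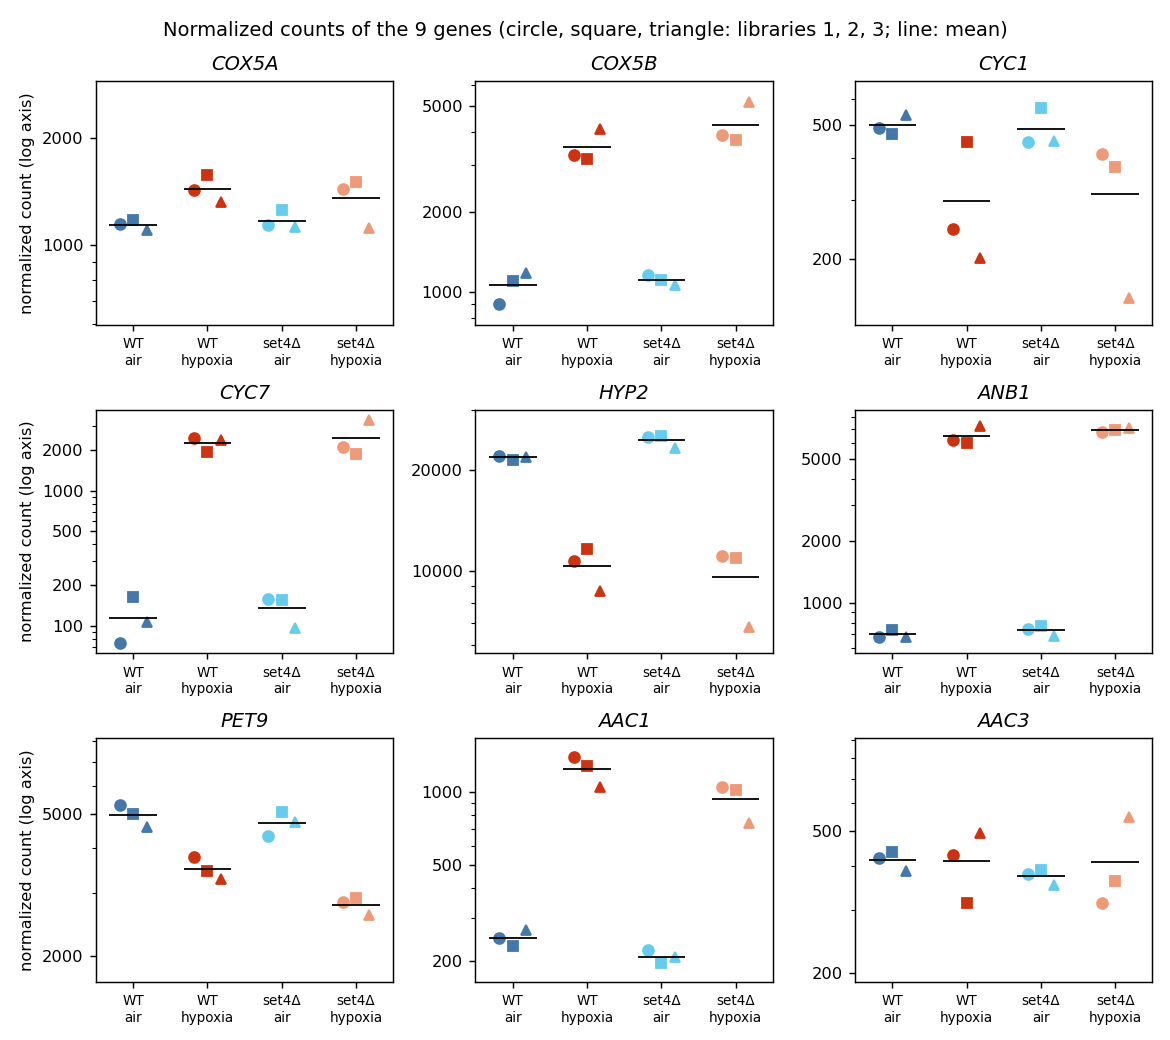
Normalized counts (log axis, a range of its own in each panel) of the 9 genes in 12 libraries, with circles, squares and triangles for libraries 1, 2 and 3 of each group and a line at the mean. CYC7, ANB1, COX5B and AAC1 are higher in every hypoxic library than in any library in air, while the groups of AAC3 overlap.

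Of the eIF5A genes, which encode a factor that helps ribosomes through difficult stretches and carries the modified residue hypusine, ANB1 showed the larger change. In wild-type cells ANB1 was at 684, 740 and 680 normalized counts in air and at 6195, 5989 and 7273 in hypoxia. It rose 9.21-fold (log2 fold change 3.20 ± 0.09, SE, adjusted p = 5.2e-08, limma, n = 3 against 3). In set4Δ cells ANB1 was at 744, 773 and 689 in air and at 6771, 6951 and 7065 in hypoxia. Here it rose 9.42-fold (log2 fold change 3.24 ± 0.07, adjusted p = 3.4e-08, limma). The hypoxic and aerobic groups did not overlap in either genotype, and ANB1 had the smallest standard error of the 4 genes that rose. Without hypoxic library 3 its log2 fold changes were 3.12 and 3.22 in wild-type and set4Δ cells.

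HYP2, the isoform of aerobic cells, was per kb the most abundant of the 9 genes in air. It was at 21990, 21370 and 21878 normalized counts in wild-type cells in air and at 10709, 11623 and 8714 in hypoxia. It fell, with all hypoxic libraries below all libraries in air (log2 fold change -1.08 ± 0.11, SE, adjusted p = 2.9e-05, limma). In set4Δ cells HYP2 was at 25007, 25169 and 23181 in air and at 11050, 10891 and 6817 in hypoxia, a log2 fold change of -1.38 ± 0.19 (adjusted p = 0.00024, limma). The size of the fall lies close to the limit of 1. Without hypoxic library 3 it was -0.96 in wild-type and -1.16 in set4Δ cells. Scaled to equal totals it was -0.996 in wild-type cells. Under quantile normalization, which moved the median of all genes by -0.15 and -0.13, it was -0.58 and -0.99, or -0.44 and -0.85 relative to that median. The call was thus lost in wild-type cells under all 3 of these alternatives and in set4Δ cells under quantile normalization, with the direction the same in each.

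Per kb of coding sequence, ANB1 made up 3.13% ± 0.19 (SD, n = 3) of the eIF5A mRNA in wild-type cells in air and 38.7% ± 6.0 in hypoxia. In set4Δ cells the share went from 2.92% ± 0.05 to 42.6% ± 7.2. HYP2 remained the more abundant isoform in hypoxia in 5 of 6 libraries, and in library 3 of set4Δ cells ANB1 held 50.9%. The sum of both genes per kb was lower in hypoxia, at 0.750 times its level in air in wild-type and 0.656 times in set4Δ cells. Without hypoxic libraries 3, ANB1 held 35.3% and 38.5% in wild-type and set4Δ hypoxia, and the sums were 0.769 and 0.708 times those in air. The log2 ratio of ANB1 to HYP2 was -5.01, -4.85 and -5.01 in wild-type libraries in air and -0.79, -0.96 and -0.26 in hypoxia. It was -5.07, -5.02 and -5.07 in set4Δ libraries in air and -0.71, -0.65 and 0.05 in hypoxia. Library 3 had the highest hypoxic ratio in both genotypes. The mean ratio changed 19.5-fold and 24.6-fold between air and hypoxia in wild-type and set4Δ cells, and 16.9-fold and 20.8-fold without libraries 3.

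The ratio of the cytochrome c genes changed 36.8-fold in wild-type and 29.9-fold in set4Δ cells, and 30.3-fold and 18.4-fold without hypoxic libraries 3. These values were above those of the eIF5A genes, except in set4Δ cells without library 3, and the difference between the families was not tested. CYC7 encodes the isoform known for low oxygen and was at 75.0, 162 and 106 normalized counts in wild-type cells in air. In hypoxia it was at 2464, 1929 and 2387, a rise of 20.5-fold (log2 fold change 4.35 ± 0.25, SE, adjusted p = 1.3e-06, limma). The set4Δ libraries held 158, 154 and 96.3 in air and 2103, 1867 and 3318 in hypoxia, a rise of 17.6-fold (log2 fold change 4.14 ± 0.26, adjusted p = 3.7e-06, limma). CYC7 also spread most among libraries in air, where its lowest value came from 69 reads, the fewest behind any value of the 9 genes. Without hypoxic library 3 the log2 fold changes were 4.31 in wild-type and 3.89 in set4Δ cells.

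CYC1, the main cytochrome c gene of aerobic cells, was at 491, 473 and 537 normalized counts in wild-type cells in air and at 245, 446 and 201 in hypoxia. Its log2 fold change of -0.83 ± 0.26 (SE, adjusted p = 0.017, limma) did not reach the limit of 1. The values in set4Δ cells were 445, 565 and 449 in air and 411, 374 and 152 in hypoxia, and the difference was not significant (log2 fold change -0.75 ± 0.35, adjusted p = 0.078, limma). CYC1 was the least even of the 9 genes within hypoxia. Without hypoxic library 3 its log2 fold change was -0.59 in wild-type and -0.30 in set4Δ cells, and without wild-type hypoxic library 2 it was -1.17, past the limit. It was past the limit also under quantile normalization in wild-type cells, at -1.11, or -0.96 relative to the median of all genes, and without hypoxic library 1 in set4Δ cells, at -1.01.

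Per kb, CYC7 supplied 17.9% ± 6.3 (SD, n = 3) of the cytochrome c mRNA in wild-type cells in air and 87.8% ± 6.2 in hypoxia, and the shares in set4Δ cells were 21.2% ± 4.2 and 87.1% ± 7.2. The sum of CYC1 and CYC7 was 4.06 times as high in hypoxia as in air in wild-type cells and 4.30 times as high in set4Δ cells. Without libraries 3 the hypoxic share of CYC7 was 85.7% and 83.0%, and the sums were 4.04 and 3.74 times those in air. The log2 ratio of CYC7 to CYC1 was -2.76, -1.59 and -2.40 in wild-type libraries in air and 3.28, 2.06 and 3.52 in hypoxia. The log2 ratio was negative in every library in air and positive in every hypoxic library of both genotypes. Ratios in set4Δ libraries were -1.54, -1.93 and -2.27 in air and 2.30, 2.27 and 4.39 in hypoxia, so that library 3 lay far from the other two.

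**Figure D2:**
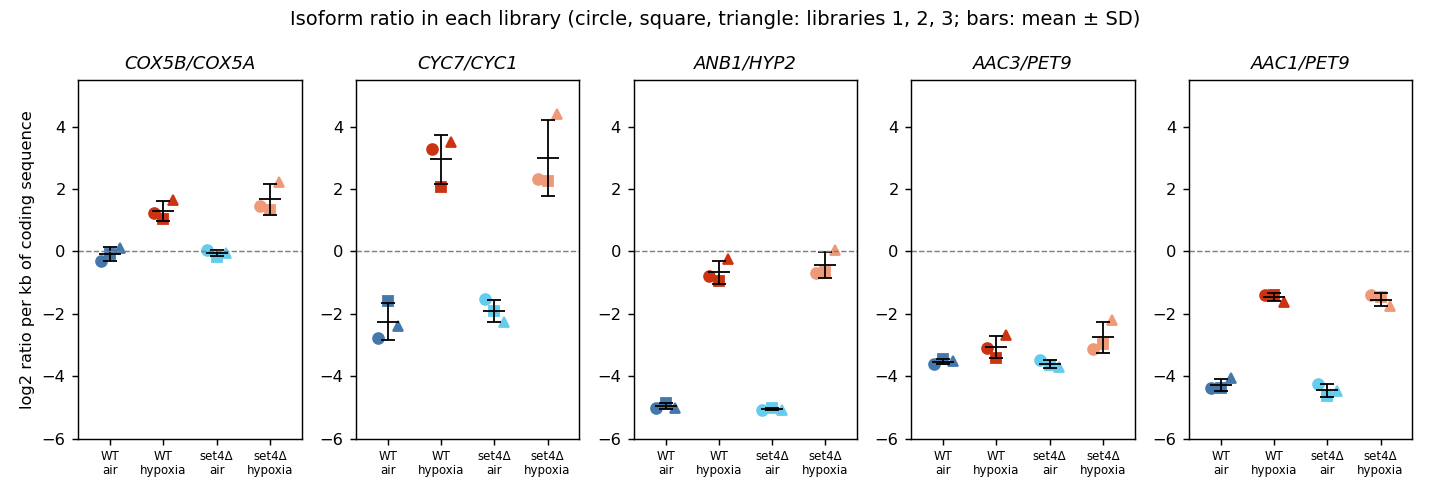
Log2 ratio of 2 isoforms per kb of coding sequence in each library (circles, squares and triangles for libraries 1, 2 and 3, bars for mean ± SD of 3), with a dashed line at equal levels. CYC7/CYC1 is below the line in every library in air and above it in every hypoxic library. ANB1/HYP2 is far below the line in air and near it in hypoxia, and AAC3/PET9 stays below -2 throughout.

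For subunit 5 of cytochrome c oxidase, the last enzyme of the respiratory chain, the partners were at similar levels in air. COX5B, the isoform of low oxygen, was at 903, 1098 and 1181 normalized counts in wild-type cells in air and at 3280, 3176 and 4093 in hypoxia. It rose 3.31-fold (log2 fold change 1.73 ± 0.13, SE, adjusted p = 5.1e-06, limma). In set4Δ cells it was at 1156, 1108 and 1065 in air and at 3890, 3721 and 5184 in hypoxia, a rise of 3.8-fold (log2 fold change 1.93 ± 0.13, adjusted p = 4.7e-06, limma). Library 3 was the highest of its group in both genotypes, and without it the log2 fold changes were 1.61 and 1.78.

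COX5A, the isoform of aerobic cells, was not lower in hypoxia. It was at 1146, 1178 and 1102 normalized counts in wild-type cells in air and at 1431, 1573 and 1326 in hypoxia, above the range in air in all 3 libraries. The log2 fold change was 0.33 ± 0.08 (SE, adjusted p = 0.0044, limma), under the limit of 1. Among set4Δ libraries COX5A was at 1141, 1259 and 1124 in air and at 1439, 1510 and 1122 in hypoxia, and the difference of 0.20 was not significant (95% interval -0.08 to 0.47, adjusted p = 0.16, limma). Library 3 was again the lowest, and without it the difference in set4Δ cells was 0.33 (adjusted p = 0.00083, limma).

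COX5B made up 48.3% ± 3.8 (SD, n = 3) of the subunit 5 mRNA per kb in wild-type cells in air and 70.9% ± 4.4 in hypoxia. In set4Δ cells the shares were 48.9% ± 1.8 and 75.7% ± 5.9. The sum of both genes was 2.26 and 2.47 times as high in hypoxia as in air in wild-type and set4Δ cells. Without libraries 3 the hypoxic share of COX5B was 68.5% and 72.3%, and the sums were 2.15 and 2.32 times those in air. The log2 ratio of COX5B to COX5A lay between -0.32 and 0.12 in the 6 libraries in air and between 1.03 and 2.23 in the 6 hypoxic ones.

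The ADP/ATP carriers exchange ADP for ATP across the inner mitochondrial membrane, and AAC1 was the isoform that rose. It was at 249, 231 and 267 normalized counts in wild-type cells in air and at 1394, 1284 and 1046 in hypoxia, 4.94-fold higher (log2 fold change 2.30 ± 0.12, SE, adjusted p = 6.9e-07, limma). AAC1 in set4Δ cells was at 221, 197 and 208 in air and at 1044, 1020 and 744 in hypoxia, 4.43-fold higher (log2 fold change 2.15 ± 0.14, adjusted p = 4.2e-06, limma). Its hypoxic values did not overlap those in air in either genotype, and library 3 was the lowest of each hypoxic group. Without it the log2 fold changes were 2.42 and 2.30.

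AAC3, the isoform known for anaerobic growth, showed no significant difference. It was at 421, 436 and 386 normalized counts in wild-type cells in air and at 428, 315 and 493 in hypoxia (log2 fold change -0.03 ± 0.16, SE, 95% interval -0.40 to 0.33, adjusted p = 0.86, limma). Values in set4Δ cells were 379, 389 and 354 in air and 314, 362 and 549 in hypoxia (log2 fold change 0.08 ± 0.19, 95% interval -0.36 to 0.53, adjusted p = 0.69, limma). Hypoxic library 3 was the highest in both genotypes, and without it the values were -0.17 and -0.15. The intervals exclude a rise as large as that of COX5B, the least of the 4 genes that rose.

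PET9, also called AAC2 and the main carrier of respiring cells, was at 5311, 4983 and 4600 normalized counts in wild-type cells in air and at 3779, 3465 and 3287 in hypoxia. Its log2 fold change of -0.50 ± 0.08 (SE, adjusted p = 0.00054, limma) passed the adjusted p but not the limit of 1. In set4Δ cells it was at 4343, 5061 and 4750 in air and at 2828, 2910 and 2599 in hypoxia (log2 fold change -0.76 ± 0.08, adjusted p = 7.3e-05, limma). Every hypoxic library was below every library in air in both genotypes, and without library 3 the log2 fold changes were -0.45 and -0.71.

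Per kb, PET9 held 87.8% ± 0.6 (SD, n = 3) of the carrier mRNA in wild-type cells in air and 67.3% ± 0.5 in hypoxia. The share of AAC1 went from 4.56% ± 0.57 to 24.4% ± 2.0, while that of AAC3 was 7.60% ± 0.35 and 8.23% ± 2.08. In set4Δ cells PET9 held 88.6% ± 1.0 in air and 66.7% ± 0.6 in hypoxia. AAC3 was above AAC1 in every library in air, and AAC1 was above AAC3 in every hypoxic library. The summed level of the 3 carriers in hypoxia was 0.923 times that in air in wild-type cells and 0.783 times in set4Δ cells. Without libraries 3 the hypoxic shares of PET9, AAC1 and AAC3 were 67.3%, 25.6% and 7.11% in wild-type and 67.0%, 24.8% and 8.17% in set4Δ cells, and the sums were 0.953 and 0.805 times those in air.

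**Figure D3:**
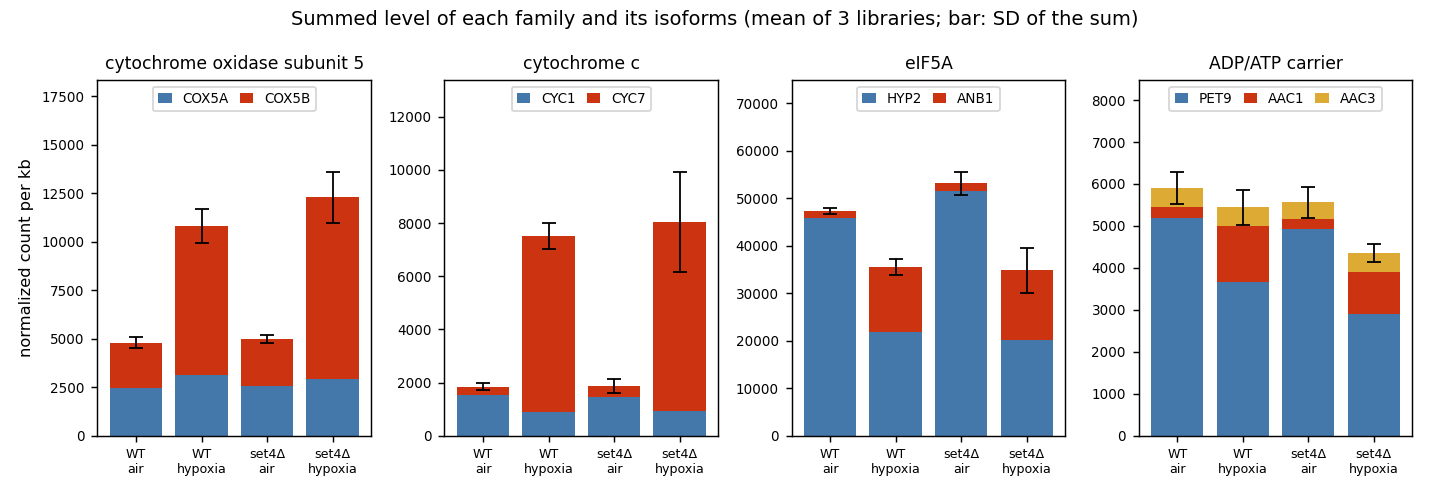
Normalized count per kb of coding sequence of each isoform, stacked by family (mean of 3 libraries, bars for the SD of the sum), in the 4 groups. The cytochrome c and subunit 5 sums are higher in hypoxia through CYC7 and COX5B, and the eIF5A sum is lower, at 0.750 times its level in air in wild-type cells.

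The order of levels per kb shows how far the families moved against each other. In wild-type cells in air the order was HYP2 (45877 ± 697 normalized counts per kb, SD, n = 3), PET9 (5187 ± 372), COX5A (2472 ± 83), COX5B (2327 ± 313), CYC1 (1516 ± 101), ANB1 (1480 ± 71), AAC3 (449 ± 28), CYC7 (335 ± 130) and AAC1 (268 ± 19). The ranges of COX5A and COX5B, of CYC1 and ANB1, of AAC3 and CYC7, and of CYC7 and AAC1 overlapped, so these neighbours did not differ beyond their spread. In wild-type cells in hypoxia the order was HYP2 (21833 ± 3139), ANB1 (13683 ± 1455), COX5B (7711 ± 1101), CYC7 (6608 ± 845), PET9 (3668 ± 260), COX5A (3124 ± 268), AAC1 (1334 ± 191), CYC1 (901 ± 395) and AAC3 (446 ± 98). Here only COX5B and CYC7, and AAC1 and CYC1, were neighbours with overlapping ranges. Without library 3 the order was the same, and AAC1 and CYC1 no longer overlapped. ANB1 moved from the sixth to the second place and CYC7 from the eighth to the fourth.

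**Figure D4:**
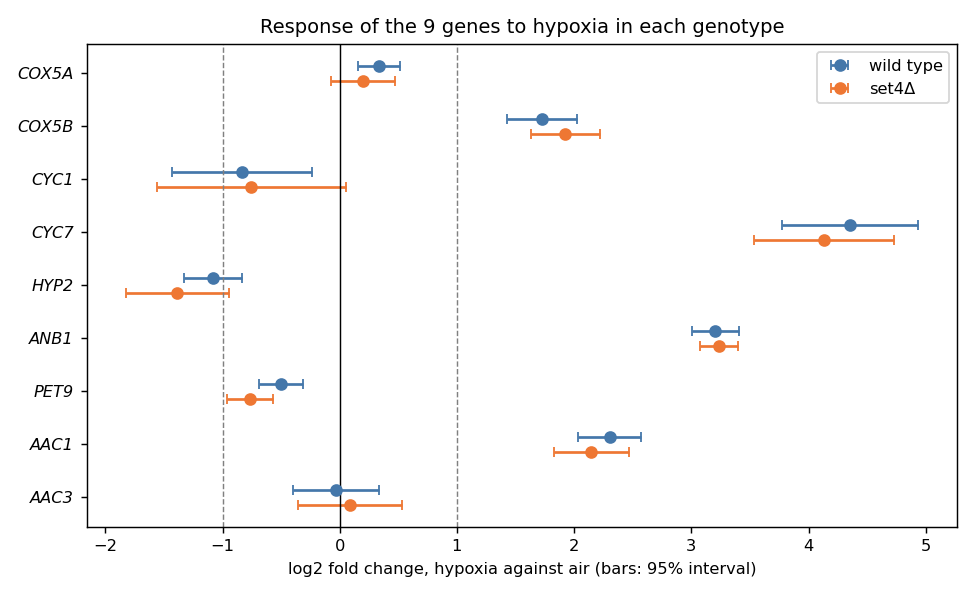
Log2 fold change of hypoxia against air for the 9 genes in wild-type and set4Δ cells, with 95% intervals as bars and dashed lines at -1 and 1. The intervals of both genotypes overlap for every gene, with CYC7 farthest to the right at 4.35 and 4.14. Such an overlap is not a test of the difference of the responses, which was fitted separately.

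The rise of ANB1, CYC7, AAC1 and COX5B and the fall of HYP2 were seen in both genotypes. None of the 9 genes differed between set4Δ and wild-type cells in air, in hypoxia, or in their hypoxia responses in the main fit. The limit was an adjusted p of at most 0.05 in limma, which PET9 and AAC1 passed in hypoxia under alternatives given below. Of all genes, 0.0516% of 5814 differed in air, 1.21% of 5875 in hypoxia and 1.34% of 6025 in the response. At an unadjusted p of 0.05, 3 of the 9 genes passed in air (AAC1, AAC3 and HYP2), 2 in hypoxia (PET9 and AAC1) and 1 in the response (PET9), against 4.82%, 13.2% and 11.9% of all genes. The difference of the responses was 0.03 for ANB1 (95% interval -0.21 to 0.27), 0.20 for COX5B (-0.23 to 0.63), -0.16 for AAC1 (-0.58 to 0.26) and -0.22 for CYC7 (-1.10 to 0.67). It was -0.30 for HYP2 (-0.81 to 0.21) and -0.26 for PET9 (-0.52 to -0.01, adjusted p = 0.40, limma). The intervals of CYC7 and of CYC1 (-0.99 to 1.15) reach past 1 in size. The comparisons share libraries, and their values are given side by side.

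PET9 and AAC1 were the members with the lowest unadjusted p between genotypes in hypoxia, while the third carrier, AAC3, was at -0.05 (unadjusted p = 0.83, limma). In the table of hypoxic libraries, PET9 was at 3710, 3412 and 3217 normalized counts in wild-type cells and at 2727, 2788 and 2534 in set4Δ cells. All 3 set4Δ libraries were below all 3 wild-type ones (log2 fold change -0.36 ± 0.09, SE, adjusted p = 0.14, limma). AAC1 was at 1368, 1264 and 1023 in wild-type cells and at 1007, 977 and 725 in set4Δ cells, a difference of -0.44 ± 0.16 (adjusted p = 0.32, limma). In both genotypes library 3 was the lowest for both genes. Without hypoxic libraries 3, a comparison added after the data were seen, both genes passed, PET9 with -0.37 (adjusted p = 0.032, limma) and AAC1 with -0.41 (adjusted p = 0.023, limma). That comparison called 6.61% of 5874 genes, or 388 in place of 71. Both genes passed also with all hypoxic libraries and a term for the replicate number (PET9 adjusted p = 0.025, AAC1 adjusted p = 0.0086, limma). That fit called more genes than the main fit as well, as given below. The replicate numbers were not taken as pairs in the main fit, so this is not a separate line of support. In air AAC1 was at 258, 241 and 280 in wild-type cells and at 225, 197 and 213 in set4Δ cells (log2 fold change -0.29 ± 0.10, adjusted p = 0.99, limma), again with no overlap. The share of all genes without overlap between groups is not given, here or for the hypoxia responses. A lack of overlap therefore does not set PET9, AAC1 or the other members apart.

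**Figure D5:**
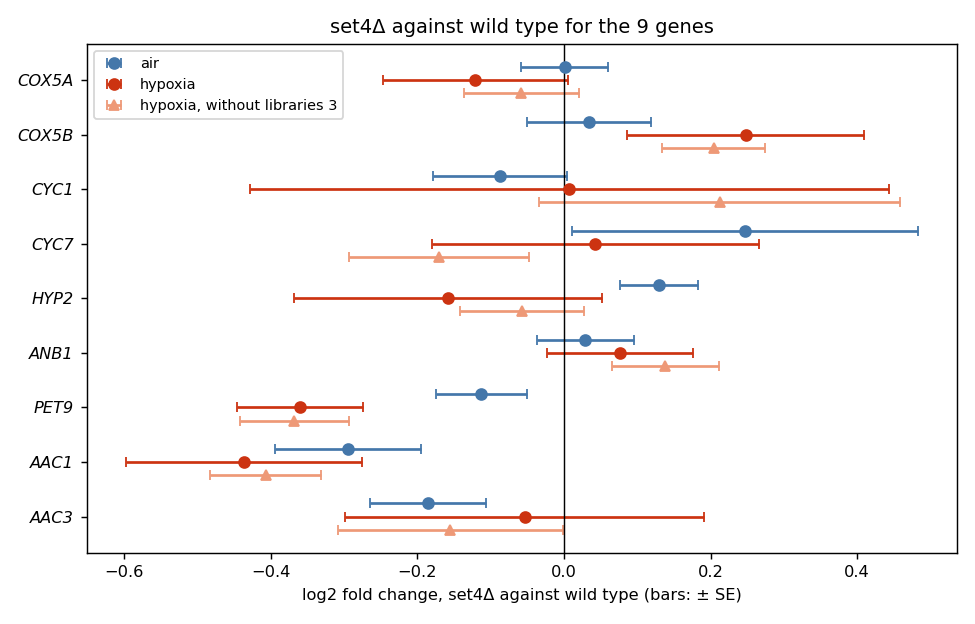
Log2 fold change of set4Δ against wild-type cells for the 9 genes in air, in hypoxia and in hypoxia without libraries 3, with bars of ± SE. PET9 and AAC1 lie to the left of 0 in all 3 comparisons, at -0.36 and -0.44 in hypoxia, and CYC7 changes side when libraries 3 are left out.

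Of 14 regulators of oxygen and heme responses, 3 rose and 2 fell in wild-type hypoxia (median log2 fold change 0.55, against 0.01 over all genes). By the same rule 18.1% of all genes were higher and 14.4% lower, so these counts do not set the list apart. UPC2 and MGA2, activators of sterol and fatty acid genes, rose by 2.69 and 2.21 on the log2 scale, and HAP1 by 1.53. HAP4, the activating subunit of the Hap2/3/4/5 complex, had a log2 fold change of -1.29 and TUP1 one of -1.14. ROX1, whose product represses ANB1 in air, was at 789, 829 and 863 normalized counts in air and at 1692, 1879 and 1358 in hypoxia, a log2 fold change of 0.98 under the limit. It was past the limit without hypoxic library 3 (1.11), without aerobic library 3 (1.01) and when scaled to equal totals (1.06). In set4Δ cells ROX1 was at 812, 936 and 892 in air and at 2579, 2411 and 1571 in hypoxia and passed, with 1.28 (adjusted p = 0.00027, limma). In set4Δ cells 5 of the 14 rose and 2 fell, against 18.6% and 15.5% of all genes. They were the same genes as in wild type and, beside them, ROX1 and the sterol regulator ECM22.

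ECM22 and CYC8 were the 2 of these 14 regulators that differed between genotypes in hypoxia. ECM22 was at 940, 1050 and 963 normalized counts in wild-type cells in air and at 1020, 1046 and 818 in hypoxia, while in set4Δ cells it was at 1042, 1034 and 910 in air and at 2328, 2299 and 1845 in hypoxia. It was higher in hypoxic set4Δ than in hypoxic wild-type cells by 1.14 on the log2 scale (adjusted p = 0.014, limma), and its response differed by 1.15 (95% interval 0.80 to 1.499, adjusted p = 0.0040, limma). The call between genotypes in hypoxia was lost without wild-type library 1 or without set4Δ library 1 or 2, with adjusted p-values up to 0.086, while the log2 difference stayed between 1.03 and 1.24 over all single libraries left out. CYC8, the partner of Tup1, was higher by 0.47 (adjusted p = 0.040, limma), which did not pass when any single library was left out.

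The genes around each family are given by list, beside the 18.1% of all genes that rose and 14.4% that fell in wild-type hypoxia. Of 8 other nuclear subunits of cytochrome c oxidase, 1 rose in wild-type hypoxia, COX26, by 3.46 on the log2 scale, and none fell (median 0.72). Of 6 genes for cytochrome c maturation and its redox partners, 3 rose (median 0.98). These were CYT1, encoding cytochrome c1 of complex III, with 1.87, and the lactate dehydrogenases DLD1, with 1.45, and CYB2, with 1.07. Of the 2 enzymes that make hypusine on eIF5A, DYS1 fell, with -1.74, and LIA1 was at -0.62. Of 10 other mitochondrial carriers 3 rose (median 0.39), which were ODC1 with 1.46, TPC1 with 1.44 and GGC1 with 1.05. HMG1 and HMG2, the HMG-CoA reductase isoforms, were at 0.76 and 0.09 and did not pass the limit of 1. The same 8 genes passed in the same direction in set4Δ cells. CYB2 and GGC1 lost the call in wild-type cells when hypoxic library 2 was left out, at 0.96 and 0.86. CYB2 lost it in set4Δ cells without aerobic library 1 (0.96) or hypoxic library 1 (0.97). Under quantile normalization CYB2 did not pass in either genotype (0.83 and 0.80), nor DLD1 (0.98) and ODC1 (0.83) in set4Δ cells, while HMG1 passed in wild-type cells (1.06). None of the 28 genes of these lists differed between genotypes in air or in hypoxia by the adjusted p in limma. At an unadjusted p of 0.05, 0 of the 28 passed in air, 8 in hypoxia and 9 in the difference of responses, against the 4.82%, 13.2% and 11.9% of all genes. Of the 8 in hypoxia, 6 were oxidase subunits (median of the 8 subunits -0.27, against -0.01 over all genes).

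Profiles over the 12 libraries were compared with those of 6025 genes by the root mean square difference of log2 values centred within each response table. The nearest to HYP2 were MTC7 (0.05) and RPP1A (0.09), a ribosomal stalk protein. The nearest to ANB1 were SAM2 (0.12), an S-adenosylmethionine synthetase, and OLE1 (0.14), the fatty acid desaturase. The nearest to COX5B were PRX1 (0.08), a mitochondrial peroxiredoxin, and YLL058W (0.10), and those to COX5A were YME2 and ARG81 (0.06 each). AAC1 was closest to PXP2 (0.10) and IZH3 (0.11), PET9 to PPS1 and NOP2 (0.06 each), and AAC3 to PEP4 (0.09), a vacuolar protease, and VPS73 (0.10). The cytochrome c genes had the least close neighbours, with EHT1 (0.20) and IRR1 (0.20) for CYC1 and YMR206W (0.23) and BAG7 (0.26) for CYC7. The 9 genes themselves were left out of the search.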

How the data were processed

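Total RNA of 12 samples was depleted of ribosomal RNA and sequenced by the authors with stranded libraries. Per the submitters' processing notes, the reads were checked with FastQC, trimmed with Trimmomatic 0.36, aligned with STAR 2.5.2b and counted per gene with featureCounts of Subread 1.5.2. Not given in the sources used here are the genome build, the strand setting and how reads with several matches were counted. The deposited signal values are, as the authors made them, read counts divided by DESeq2 size factors per table, here called normalized counts. Each of the 4 deposited files covers 6 libraries and a single comparison. Columns with fold changes, p-values and local false discovery rates of the authors were not used.

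All values were whole multiples of 1 step per library (tolerance 0.01 reads), which, taking 1 step as 1 read, gave the depth and matched libraries between tables. The tables of genotypes number libraries 1 and 3 the other way round, and the numbers of the response tables are used here. One wild-type column of the table for air was shifted against the gene names and held 5825 values for 5822 genes. Its read numbers are those of wild-type aerobic library 1 (99.93% found there), whose values from the response table replaced it after rescaling, and 8 genes without all 6 libraries were left out. One row of the hypoxic table has no gene name and was left out. No column of other samples was found.

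Values were tested as log2(value + 1) with limma (version 3.58.1, R 4.3.3), letting the variance follow a trend, for genes whose mean reached 10 in either group. Fold changes are on this scale. P-values were adjusted over each table by Benjamini and Hochberg. Called genes have an adjusted p of at most 0.05 and, between hypoxia and air, a log2 fold change whose size reaches 1. The difference of responses was fitted over both response tables, where the scale of a table cancels. Levels of different genes were compared only per kb of coding length. The test was tried on simulated data. Promoters and coding sequences were read from RefSeq R64 with Biopython 1.88, and positions are those of R64. The genes named are the 9 members, SET4, the genes of 6 lists and the 2 genes nearest to each member by profile. The members and lists were chosen with earlier results of these data known. Alternatives were pseudocounts of 0.5 and 5, filters, scalings, no trend, a replicate block and each library left out. Intervals cover the spread between libraries of a group.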

Additional observations from a re-analysis of the deposited data

Results flagged for a closer look

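ECM22, a sterol regulator in the list of oxygen and heme regulators, responded to hypoxia differently in the 2 genotypes by the test of the difference itself. Its response was 1.15 higher on the log2 scale in set4Δ than in wild-type cells (adjusted p = 0.0040, limma), and it was 1.15 without hypoxic libraries 3 as well. All 3 hypoxic set4Δ libraries (2328, 2299 and 1845 normalized counts) were above all other libraries. With single libraries left out the difference was 1.04 to 1.26 and passed each time, whereas the call between genotypes in hypoxia was lost in 3 such repeats. None of the 9 isoform genes passed the test of the difference.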

How the results depend on the processing

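The hypoxia responses of ANB1, CYC7, AAC1 and COX5B kept their direction and passed under every alternative. Same-numbered hypoxic libraries of the 2 genotypes had r of 0.059, 0.725 and 0.746, and wild-type library 2 had 0.749 with set4Δ library 1. For most other pairs of groups r was near 0 or below it. The numbers were therefore not taken as pairs in the main fit, and whether hypoxic libraries were paired was not tested otherwise. With the replicate block, 436 of 5875 genes and 2 of the 9 members (PET9, adjusted p = 0.025, and AAC1, adjusted p = 0.0086, limma) differed between genotypes in hypoxia. In the main fit these numbers were 71 and 0. No other call on the 9 genes changed. Without hypoxic libraries 3, 388 genes and 2 members were called in hypoxia, and 283 in place of 81 in the difference of responses. Chosen after seeing the data were this alternative and a joint scaling of all 12 libraries. In air 1 gene in place of 3 was called with quantile normalization, without the trend and with joint scaling. The number of genes called was 1 to 7 in air, 17 to 93 in hypoxia and 31 to 119 in the difference of responses when single libraries were left out. The call of HYP2 in wild-type cells was lost with equal totals, quantile normalization and without hypoxic library 3. With 600 bases, 7 and 4 of the genes held CCAAT and CGGNNNTA, against 4 and 0 in the shorter window around the start codon. The change of CYC7/CYC1 in set4Δ cells went from 29.9-fold to 18.4-fold without hypoxic library 3.

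The values that changed sign had not passed the test. The response of AAC3 was 0.053 in wild-type cells with equal totals, -0.12 in set4Δ cells with quantile normalization and -0.15 without hypoxic libraries 3. Between genotypes, COX5A in air was -0.0008 with quantile normalization, and in hypoxia CYC1 was -0.0006 with joint scaling and CYC7 -0.17 without libraries 3. Leaving out single libraries gave ranges that cross 0. These were -0.17 to 0.15 and -0.15 to 0.25 for the response of AAC3 in wild-type and set4Δ cells. In air they were -0.040 to 0.024 for COX5A, -0.08 to 0.12 for COX5B and -0.022 to 0.53 for CYC7. In hypoxia they were -0.20 to 0.0038 for COX5A, -0.25 to 0.45 for CYC1, -0.21 to 0.22 for CYC7, -0.28 to 0.064 for HYP2 and -0.29 to 0.12 for AAC3. In the difference of responses they were -0.18 to 0.53 for CYC1, -0.51 to 0.047 for CYC7, -0.022 to 0.12 for ANB1, -0.28 to 0.0005 for AAC1 and -0.12 to 0.28 for AAC3. The response of ECM22 in wild-type cells was 0.043 with equal totals and 0.070 without hypoxic libraries 3, with a range of -0.11 to 0.070 when single libraries were left out. The cause of these changes was not tested. With 3 libraries in each group, differences under about the intervals given were not detectable.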
